A study of Mus musculus with 15 samples.

Results

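The genes of the mouse major histocompatibility complex (MHC, called H2 in the mouse) and of the machinery that loads peptides onto its molecules were followed through all 15 RNA-seq libraries of an experiment on autologous muscle stem cell transplantation. The set was chosen by symbol. It held every table row whose symbol starts with H2-, apart from 3 rows whose symbols carry a pseudogene ending, and 10 further genes: B2m, Tap1, Tap2, Tapbp, Psmb8, Psmb9, Psmb10, Nlrc5, Cd74 and Ciita. This gave 53 of the 56953 rows, with 52 distinct symbols, since H2-K2 has 2 rows. By role they divide into 30 class I heavy chain genes, 14 class II genes with Cd74 and Ciita among them, and 9 others. The 9 others are B2m, the 6 peptide supply genes, Nlrc5 and H2-Ke6, a hydroxysteroid dehydrogenase gene that bears an H2- symbol only because of where it lies.

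Class I molecules sit on nearly all nucleated cells and show short peptides from the cell's own proteins to CD8 T cells; each is a heavy chain held by B2m, filled with peptides that the immunoproteasome cuts and the TAP transporter carries into the endoplasmic reticulum. Class II molecules show peptides from ingested proteins to CD4 T cells and are made mainly by dendritic cells, macrophages and B cells, with Cd74 (the invariant chain) guarding the groove until the DM editors exchange it for peptide. Interferons raise both pathways, class I through NLRC5 and class II through CIITA, and resting skeletal muscle fibres are known for little class I on their surface.

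The animals were wild-type mice of strain 129, labelled as 10-week-old males, 10 mice by the labels' count, of which 9 are numbered in the sample titles. Muscle stem cells (MuSCs) were taken by biopsy from mice 5, 6 and 11 before they received their own MuSCs as a transplant (3 libraries, "before") and again afterwards, from a site that had not been transplanted (3 libraries, "after"). Quadriceps femoris muscle was taken from 6 transplanted mice (4, 14, 94, 5, 6 and 11) and from 3 sham-operated mice (3, 192 and 12). The treatment entry of the sham samples reads the same as that of the transplanted ones, so the sham group rests on the sample titles, and no source used here gives the interval between surgery and sampling. Each library held 17094753 to 22981420 estimated counts, with counts for 17809 to 20200 genes. The Y-linked genes Ddx3y, Eif2s3y, Kdm5d and Uty together summed to 22 counts or fewer in every library although the label is male, and Xist was at 520 or more counts everywhere except in the muscle of transplanted mouse 4, where it had 2. MuSC markers summed to 817 to 1377 TPM in the MuSC libraries and to 46.4 to 67.7 TPM in muscle. Among the MuSC libraries, that of mouse 11 after transplantation stood apart. Its 18 interferon-stimulated genes summed to 1107 TPM, against 19.5 to 41.1 TPM in the other 5 MuSC libraries. It had 895 TPM of myofibre markers against 3891 to 12170, and 1.2% mitochondrial counts against 4.4% to 6.3%. Its Xist count was 520, against 17053 in the before library of mouse 11 and 2283 to 12451 in the MuSC libraries of mice 5 and 6. The before and after libraries of mouse 11 are also named in different styles, unlike those of mice 5 and 6. What goes with the name style and what goes with transplantation cannot be told apart in mouse 11. Members' differences that the after library of mouse 11 moves strongly are given with and without it. TPM is the deposited abundance scaled by gene length and by library total, and is the scale of every level below. In these bulk libraries, fewer cells of a type and less RNA per cell cannot be told apart.

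The upstream sequences of 4 of the genes and the stretch shared by 2 more show what the class I and class II promoters have in common and where they part. RefSeq start sites were found for 37 of the 53 members, and the 250 bases before each start were searched on both strands. The letters searched were GAANNGAAA for an interferon-response element, ATTGG for the Y box core bound by NF-Y, and GGATTCCCC for the enhancer A site of class I genes. Sequences are from RefSeq on GRCm38.p6, the C57BL/6J reference, while the animals were strain 129; each is written 5′ to 3′ in the direction of its gene, the shared stretch on the plus strand. Capitals mark matches on either strand to these letters. H2-K1 (chr17:34000348-34000597, minus strand) and H2-D1 (chr17:35262844-35263093, plus strand) are the classical class I heavy chains and are shown because they carry all 3 kinds of match. B2m (chr2:122147437-122147686, plus strand) is their light chain. The 225 bases between the divergent starts of Tap1 and Psmb9 (chr17:34187331-34187555) serve both genes. H2-Aa (chr17:34287824-34288073, minus strand) is a class II alpha chain and, like H2-Ea and H2-Pa, had no counts in any MuSC library.
H2-K1: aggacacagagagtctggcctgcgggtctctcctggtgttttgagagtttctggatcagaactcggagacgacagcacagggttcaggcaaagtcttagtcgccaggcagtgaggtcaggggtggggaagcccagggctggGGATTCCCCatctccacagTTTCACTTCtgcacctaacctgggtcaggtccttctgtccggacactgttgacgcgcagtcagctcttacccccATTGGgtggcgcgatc
H2-D1: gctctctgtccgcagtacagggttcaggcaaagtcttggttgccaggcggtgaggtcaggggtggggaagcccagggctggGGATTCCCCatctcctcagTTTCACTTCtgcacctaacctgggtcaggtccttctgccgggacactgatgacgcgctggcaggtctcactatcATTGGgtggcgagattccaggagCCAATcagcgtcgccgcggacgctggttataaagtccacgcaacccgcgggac
B2m: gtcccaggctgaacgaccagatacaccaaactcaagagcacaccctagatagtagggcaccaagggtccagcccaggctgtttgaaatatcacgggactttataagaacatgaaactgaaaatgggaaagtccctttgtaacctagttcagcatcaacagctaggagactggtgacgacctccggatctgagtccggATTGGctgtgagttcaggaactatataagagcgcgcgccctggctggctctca
Tap1 and Psmb9 shared: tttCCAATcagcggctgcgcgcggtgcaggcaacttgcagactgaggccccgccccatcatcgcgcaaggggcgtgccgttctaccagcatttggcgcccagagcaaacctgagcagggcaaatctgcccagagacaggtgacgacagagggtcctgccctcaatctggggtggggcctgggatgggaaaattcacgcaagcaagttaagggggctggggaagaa
H2-Aa: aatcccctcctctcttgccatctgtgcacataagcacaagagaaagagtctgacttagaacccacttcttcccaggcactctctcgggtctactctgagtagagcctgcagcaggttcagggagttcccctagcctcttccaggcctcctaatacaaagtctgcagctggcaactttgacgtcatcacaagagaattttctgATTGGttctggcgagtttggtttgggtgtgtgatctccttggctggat

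The interferon-response letters lay within 8 of 22 class I upstream regions (36.4%), 0 of 8 class II regions and 0 of 6 regions of B2m and the peptide supply genes, against 6.3% of all 32851 promoters. The class I regions that held them were those of H2-K1, H2-D1, H2-M2, H2-M3, H2-Q4, H2-Q6, H2-Q7 and H2-Q10. The Y box core was in 19 of 22 class I regions (86.4%), 7 of 8 class II regions (87.5%) and 4 of 6 of the supply genes, against 33.8% of all promoters. The enhancer A letters were in H2-K1, H2-D1 and H2-Q6, and in 0.2% of all promoters. A match is a string of letters, and its absence says only that these letters are not within that window. The letters GAANNGAAA also miss related strings with a longer spacing. The B2m region holds gaaactgaaa and the H2-T22 region tttcactttc, and neither is counted, so the shares depend on the letters chosen. Class I genes arose by duplication and their promoters are related, so these counts are not independent.

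Class I and class II parted sharply in MuSCs and much less in muscle. In MuSCs the classical class I heavy chains were measured in every library while the class II chains were near or at 0, and in quadriceps both classes were measured in every library. Summed over H2-K1 and H2-D1, class I was 61.4, 39.5 and 315 TPM in the after libraries of mice 5, 6 and 11, and 137, 70.7 and 29.5 TPM in the before libraries of the same mice. The 7 class II chain genes together gave 0.35, 0.17 and 1.02 TPM after and 2.03, 1.72 and 1.65 TPM before. As a share of H2-K1 plus H2-D1, the class II chains came to 0.441% ± 0.123 after and 3.17% ± 2.15 before (SD, n = 3 each), and the ranges of both groups did not overlap. That share moves with H2-K1 and H2-D1 as well as with the handful of class II counts. In muscle the same share was 25.6% ± 1.42 in transplanted mice (SD, n = 6) and 23.2% ± 2.10 in sham mice (SD, n = 3), with all 9 libraries between 20.8% and 27.9%. MuSC and muscle libraries were deposited in separate tables, so levels of both tissues are set side by side with no test.

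**Figure D1:**
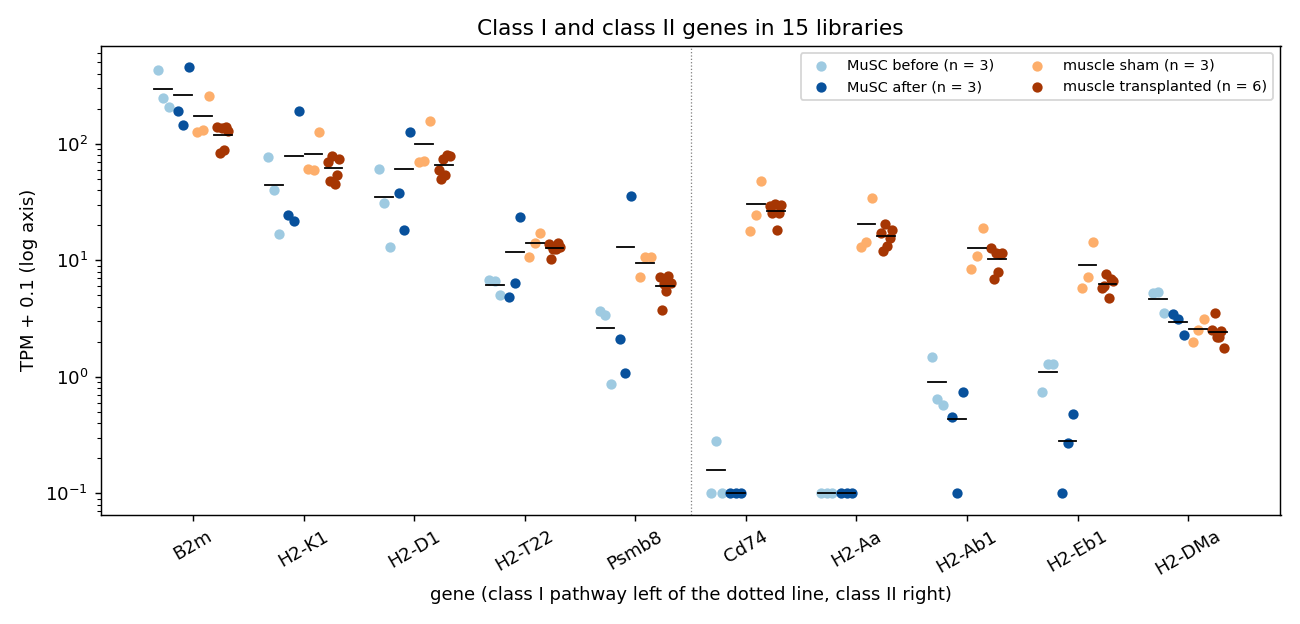
Level of 5 class I pathway genes and 5 class II genes, as TPM plus 0.1 on a log axis, for each of the 15 libraries; points are libraries, horizontal bars are group means. H2-Aa sits at 0 in all 6 MuSC libraries and between 11.96 and 33.8 TPM in the 9 muscle libraries, whereas H2-K1, H2-D1 and B2m are measured in every library of both tissues.

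Of the 53 members, 42 had counts in at least 1 library. The 11 without any were 9 class I genes and the class II genes H2-Pa and H2-Pb. A mean of 10 TPM or more was reached by 11 members in the after MuSCs, 6 in the before MuSCs, 10 in transplanted muscle and 11 in sham muscle. In muscle those members included Cd74, H2-Aa and H2-Ab1; in MuSCs they included no class II gene. The range over the 6 MuSC libraries lay wholly below the range over the 9 muscle libraries for 5 class II genes (H2-Aa, H2-Ab1, H2-Eb1, Cd74 and H2-DMb2), for 4 class I genes (H2-Q4, H2-Q6, H2-Q10 and H2-T24) and for H2-Ke6. Over all 29160 genes with a level above 0 in at least 1 library, 9.84% lay wholly lower in MuSCs in this way and 20.7% wholly higher. Among the 53 members, Tap2, a subunit of the peptide transporter, was the only one wholly higher in MuSCs, at 5.68 to 27.1 TPM against 2.61 to 4.58 TPM in muscle.

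The class II genes in MuSCs were at the edge of detection. H2-Aa had 0 counts in all 6 libraries, which allows up to 3 counts over the 6, a level of 0.026 CPM (counts scaled by library total). Cd74 had 3 counts in the before library of mouse 6, listed at 0.18 TPM, and 0 counts in the other 5 libraries. H2-Ab1, the beta chain that pairs with H2-Aa, had 3, 0 and 12 counts after and 23, 9 and 7 counts before in mice 5, 6 and 11. H2-Eb1, the beta chain of the E molecule, had 0, 3 and 4 counts after and 7, 12 and 10 counts before. Its after libraries all lay below its before libraries. The same order held for 2.98% of all genes with enough counts for the test, a set that does not hold H2-Eb1. No share was taken for genes with so few counts. None of the 7 class II chain genes had enough counts to be tested between the groups. Ciita, the class II transactivator, was at 0.07 TPM or less, and Ctss, the protease that trims the invariant chain in antigen-presenting cells, had 0 TPM in all 6 MuSC libraries. H2-DMa, the alpha chain of the DM peptide editor, was the exception among class II genes. It measured 3.34, 3.04 and 2.16 TPM after and 5.13, 5.24 and 3.40 TPM before. On the CPM scale of the test the groups overlapped. Its partner genes H2-DMb1 and H2-DMb2 averaged 0.91 and 0.02 TPM after and 0.79 and 0.02 TPM before. The log2 difference of H2-DMa, after minus before, was -0.51 ± 0.47 (SE) with adjusted p = 0.873 by edgeR's quasi-likelihood test.

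Markers of antigen-presenting cells were low in the same MuSC libraries. Of 12 macrophage markers, 5 had no counts in any of the 6 (Adgre1, C1qa, C1qb, C1qc and Fcgr1), and the list summed to 2.47 to 5.38 TPM against 39.97 to 101.6 TPM in muscle. Cd68, a lysosomal protein gene, gave most of that sum in each MuSC library, at 2.02 to 5.14 TPM, and was at 1.37 to 3.77 TPM in muscle. All 6 T cell and all 4 NK cell markers had no counts, as had Ptprc, the pan-leukocyte gene. The leukocyte list still summed to 22.9 TPM in the after library of mouse 6, of which Laptm5 gave 22.5 TPM, against 0.59 to 6.98 TPM in the other 5.

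Between MuSCs before and after transplantation, no member passed the test, and no gene of the 13512 tested did (0% called). The smallest adjusted p over all genes was 0.873 by edgeR. At an unadjusted p under 0.05, 305 genes (2.26%) were counted by edgeR, among them 1 member, H2-M3. DESeq2 called 18 genes (0.0734%) and no member. Of the 21 members with enough counts to be tested, 18 had a positive and 3 a negative log2 difference, where 51.4% of all genes tested were positive. The 10 class I heavy chain genes tested had a median log2 difference of 1.23, and all genes one of 0.02. This test, and every MuSC difference below unless said otherwise, has no term for the mouse. With the mouse as a block the class I median was 0.56. Without the after library of mouse 11, the class I median was -0.31, and 3 of the 10 were positive.

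Library by library, the classical heavy chains showed what lies behind that median. H2-K1 was at 24.2, 21.5 and 189 TPM after and at 76.6, 39.6 and 16.7 TPM before in mice 5, 6 and 11. Mice 5 and 6 were lower after transplantation and mouse 11 was higher, so the groups overlapped. The log2 difference was 1.23 ± 1.04 (SE, edgeR adjusted p = 0.873) with all 6 libraries and -0.87 without the after library of mouse 11. H2-D1 ran in parallel, at 37.3, 18.1 and 126 TPM after and 60.01, 31.1 and 12.8 TPM before. Its log2 difference was 1.14 ± 0.86 (SE, edgeR adjusted p = 0.873), and -0.30 without that library. With the mouse as a block, H2-K1 was at 0.12 and H2-D1 at 0.55. Heavy chain genes such as H2-K1, H2-D1 and the Q and T genes are near-identical in stretches, and how reads that match several copies were shared out is not stated in any source used here, which leaves the split between them uncertain. B2m, the light chain shared by class I molecules, was the most abundant member per length in MuSCs, at 189, 146 and 453 TPM after and 431, 244 and 205 TPM before. Its log2 difference of 0.16 ± 0.57 (SE) was the smallest in size of the class I pathway members tested. In the after library of mouse 11, B2m stood at 1.44 times the sum of H2-K1 and H2-D1, against 3.08 to 6.94 times in the other 5 MuSC libraries and 0.838 to 1.08 times in muscle.

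The 3 immunoproteasome subunits were also highest in the after library of mouse 11. Psmb8, which replaces the constitutive subunit Psmb5 when cells see interferon, was at 1.99, 0.98 and 35.6 TPM after and 3.56, 3.29 and 0.77 TPM before. The after library of mouse 11 was 9.99 times the next highest, and the other 2 after libraries lay within the range of the before libraries. Psmb8 came to 10.7% of the Psmb5 level there, against 0.301% to 1.59% in the other MuSC libraries. Psmb9, the partner that replaces Psmb6, was at 0.25, 0.79 and 6.48 TPM after and 0.90, 1.35 and 0.42 TPM before. Psmb10, the third inducible subunit, was less restricted, at 13.6, 39.9 and 55.1 TPM after and 21.4, 29.1 and 31.4 TPM before. The log2 differences were 2.55 ± 1.52, 1.82 ± 1.24 and 0.86 ± 0.65 (SE), each with adjusted p = 0.873 by edgeR. Without the after library of mouse 11 they were -1.22, -0.60 and 0.15. With the mouse as a block they were 0.02, 0.38 and 0.50. The constitutive subunits Psmb5, Psmb6 and Psmb7 were highest in the after library of mouse 11 too, at 331, 507 and 317 TPM. Summed, they were at 1155 TPM there and at 612 to 988 TPM in the other MuSC libraries. The 3 immunoproteasome subunits came to 8.41% of that sum there, against 2.58% to 5.09% in the others. Psmb5, Psmb6 and Psmb7 had log2 differences of 0.40, 0.68 and 0.36, none past the threshold.

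The peptide transporter and its docking protein followed the same library. Tap2 was at 9.66, 5.68 and 27.1 TPM after and 14.2, 10.8 and 7.51 TPM before. Tapbp, or tapasin, which bridges the transporter to empty class I molecules, was at 6.47, 6.45 and 26.2 TPM after and 10.0, 8.05 and 6.48 TPM before. Tap1, the other transporter subunit, reached 12.2 TPM in the after library of mouse 11 and lay between 2.46 and 5.86 TPM elsewhere. In each of the 3 genes, mice 5 and 6 were lower after than before and mouse 11 was higher. Nlrc5, the transactivator of class I genes, had the same directions within each mouse but another peak. It was at 0.82, 0.08 and 0.80 TPM after and 1.81, 0.60 and 0.48 TPM before, highest in the before library of mouse 5 rather than the after library of mouse 11, with a log2 difference of -0.64 ± 1.10 (SE, edgeR adjusted p = 0.876).

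**Figure D2:**
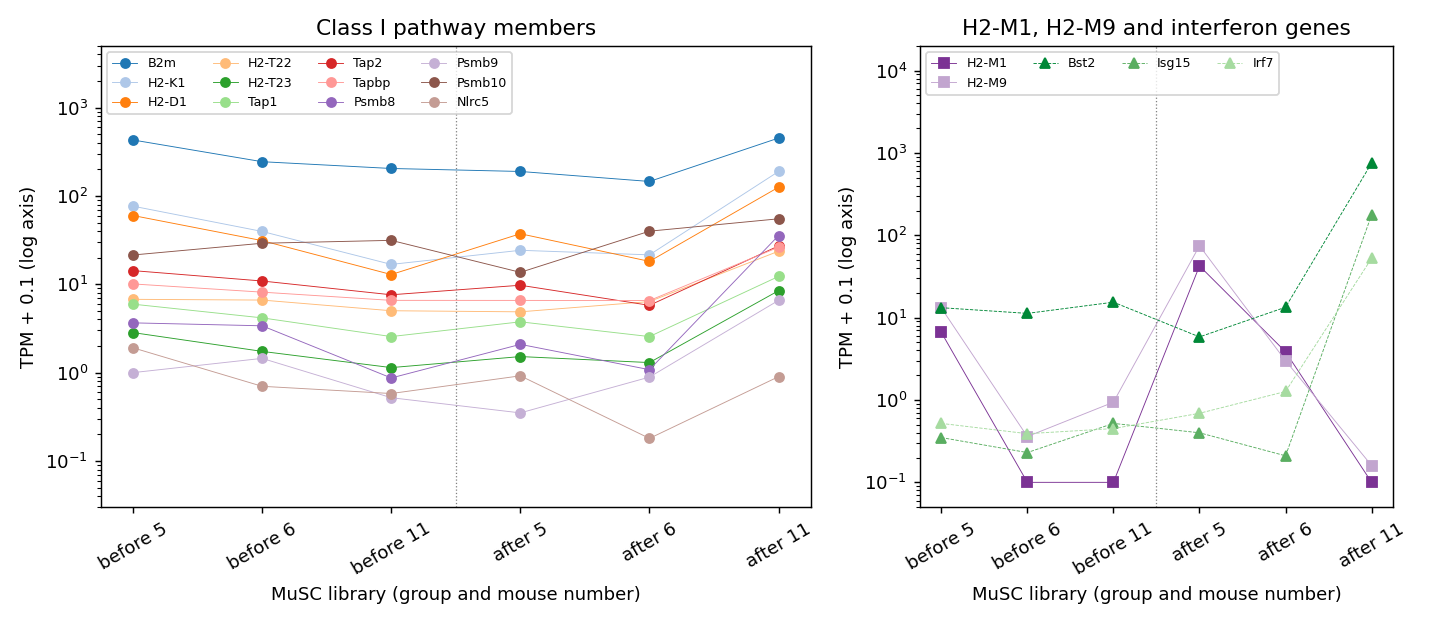
Levels in the 6 MuSC libraries, as TPM plus 0.1 on a log axis, with the before libraries left and the after libraries right of the dotted line; thin lines only join the points of 1 gene. The left panel holds 12 class I pathway members, of which 11 peak in the after library of mouse 11 and Nlrc5 does not. The right panel holds H2-M1 and H2-M9, which peak in mouse 5, beside the interferon-responsive genes Bst2, Isg15 and Irf7.

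Of the 17 members with a mean of at least 1 TPM over the MuSC libraries, 13 were highest in the after library of mouse 11, 3 in the after library of mouse 5 and 1, H2-DMa, in the before library of mouse 6. No share over all genes was taken for these counts. The lead of the mouse 11 library over the next ranged from 1.05 times in B2m and 1.08 times in H2-Ke6 to 9.99 times in Psmb8. Summed, the interferon-stimulated genes were highest in that same mouse 11 library: Bst2 (tetherin) was at 756 TPM there against 5.74 to 15.3 TPM in the other 5, and Isg15, a ubiquitin-like modifier, at 178 TPM against 0.11 to 0.42 TPM. Of the 18 genes, Gbp4 was instead highest in the before library of mouse 11, at 19.0 TPM against 14.1 TPM after, and Cxcl9 was at 0 in all 6. Irf1, which activates class I genes directly, was not highest there, at 6.39 TPM against 7.61 TPM in the after library of mouse 5. The interferon genes Ifng, Ifnb1, Ifnl2 and Ifnl3 were at 0 in all 15 libraries. The quadriceps of the same mouse 11 had 6.13 TPM of Bst2, 0.61 TPM of Isg15 and 74.0 TPM of H2-K1, all within the range of the other 8 muscle libraries. Whether the interferon-stimulated genes play a part in the class I levels of that library was not tested.

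Among the non-classical class I genes of MuSCs, H2-T22, whose product gamma-delta T cells can bind, reached a mean of 10 TPM after transplantation. It was at 4.78, 6.28 and 23.6 TPM after and 6.66, 6.53 and 4.92 TPM before. Its log2 difference of 1.24 ± 0.74 (SE, edgeR adjusted p = 0.873) became -0.01 without the after library of mouse 11. H2-T23, which encodes Qa-1, a ligand of inhibitory NK receptors, was at 1.42, 1.20 and 8.37 TPM after and 2.74, 1.64 and 1.04 TPM before. H2-T10, a close relative of H2-T22, had the same peak, at 5.90 TPM in that library and 0.83 to 2.13 TPM in the other 5.

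H2-M9 and H2-M1 went a different way. Both belong to a branch of class I genes known from sensory neurons of the vomeronasal organ, and both were nearly absent from muscle. H2-M9 was at 74.6, 2.90 and 0.06 TPM after (917, 52 and 1 counts) and at 13.1, 0.26 and 0.84 TPM before (192, 4 and 11 counts) in mice 5, 6 and 11. H2-M1 was at 42.4, 3.75 and 0 TPM after (494, 63 and 0 counts) and at 6.55, 0 and 0 TPM before (91, 0 and 0 counts). Both libraries of mouse 5 were the highest 2 of the 6 for each gene. The after library of mouse 11, highest for 13 of the 17 members averaging at least 1 TPM, was the lowest for H2-M9. In the after library of mouse 5, H2-M9 lay above H2-D1 per length. The log2 differences were 2.43 ± 1.91 for H2-M9 and 2.83 ± 2.18 for H2-M1 (SE, edgeR adjusted p = 0.873 for both), and without the after library of mouse 5 they were -1.09 and 0.34. Without the before library of mouse 5, H2-M1 had 0 counts in the before group, and the fitted value of 10.41 then depends on the prior count and is no bound. In muscle, H2-M1 had 0 TPM in all 9 libraries and H2-M9 at most 0.11 TPM.

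H2-M3, which presents formylated peptides of bacteria and mitochondria, was the only tested member whose MuSC groups did not overlap on the scale of the test (CPM); 3.35% of all genes tested had after libraries that all lay higher, as here. It was at 3.10, 1.42 and 2.24 TPM after and 1.77, 0.54 and 0.66 TPM before. On the TPM scale the after library of mouse 6 lay below the before library of mouse 5, so the separation depends on the scaling. Its log2 difference was 1.41 ± 0.55 (SE), with adjusted p = 0.873 by edgeR's quasi-likelihood test. H2-Ke6 served as a gene outside the pathway from the same chromosomal region. It varied little, at 10.8, 14.1 and 15.3 TPM after and 13.5, 14.1 and 10.6 TPM before.

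**Figure D3:**
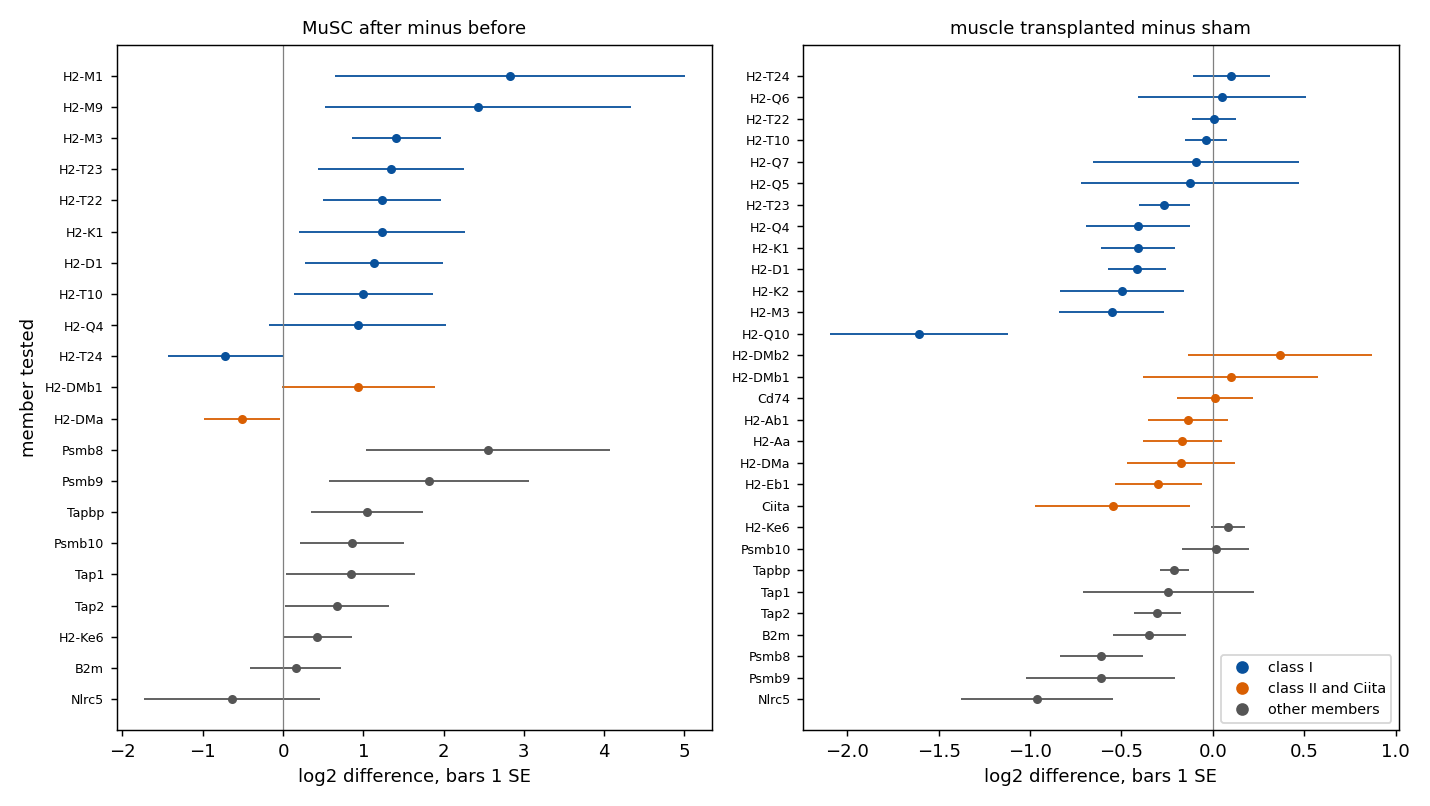
Log2 difference with 1 SE for each member tested, MuSCs after minus before on the left (21 members) and transplanted minus sham muscle on the right (30 members), coloured by class. Horizontal scales differ between the panels. No member passed the threshold in either comparison. The SE is 1.04 for H2-K1 in MuSCs and 0.20 in muscle.

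Other genes of the pathway gave no call between before and after MuSCs either. Of 9 interferon gamma signalling genes, 8 were tested, 5 with a positive and 3 with a negative log2 difference; Irf1 was at 0.52 ± 0.48 (SE, edgeR adjusted p = 0.873). Of 7 factors that bind MHC promoters, all were tested and 5 were positive, with Rfx5, a subunit of the RFX complex, at -0.08. Of 7 further peptide loading and trimming genes, 4 were positive, with the proteasome activator gene Psme1 largest in size at 0.90. Of 6 proteases and reductases of the class II route, 5 were tested and 4 were positive, led by Ctsl, the cathepsin L gene, at 0.54. Of 18 interferon-stimulated genes, 4 had enough counts, with Irf7 at 6.12 ± 1.98, Bst2 at 4.74 ± 1.83 and Irgm1 at 1.37 ± 0.73 (SE). Without the after library of mouse 11 these 3 were at 0.96, -0.23 and 0.09. Of 6 costimulation genes, 2 were tested, with Cd40 at 3.15 ± 1.31 and Cd80 at -0.83 ± 0.55 (SE). Cd40 was at 1.03 without that library. None of these genes passed the adjusted threshold in edgeR's quasi-likelihood test.

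In quadriceps, the same genes were compared between 6 transplanted and 3 sham mice. No member passed the test, and none of the 14375 genes tested did (0% called); the smallest adjusted p was 0.423 by edgeR. At an unadjusted p under 0.05, 1018 genes (7.08%) were counted by edgeR, and 6 of the 30 members tested: H2-Q10, Psmb8, Tapbp, H2-D1, Tap2 and Nlrc5. All 6 were lower in transplanted mice, where 4.08% of all genes were counted in that direction. DESeq2 called 17 genes (0.0644%) and no member. Of the 30 members, 22 had a negative log2 difference, transplanted minus sham, against 50.1% of all genes. The median was -0.26 over 13 class I genes and -0.15 over 8 class II genes, and 0.00 over all genes to 2 decimals.

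The muscle libraries came in 2 tables, which entered the fit as a term: one held transplanted mice 4, 14 and 94 with sham mice 3 and 192, the other held transplanted mice 5, 6 and 11 with sham mouse 12. Sham mouse 12 was the highest library for 15 of the 26 members that averaged at least 1 TPM in muscle. No share over all genes was taken for that count. This library was also the highest for the macrophage list, at 102 TPM against 39.97 to 66.5 TPM in the other 8, and for the fibroadipogenic list, at 121 TPM against 40.5 to 66.3 TPM. The dendritic cell, leukocyte, endothelial and MuSC lists peaked there too, but the B cell, T cell, NK cell and myofibre lists did not. Psmb6 and Psmb7 were highest there as well, at 247 and 292 TPM, and Psmb5 was not. Mitochondrial genes took 9.3% of the counts of sham mouse 12, against 12.2% to 16.0% in the other 8. The part of these in the members' levels was not tested. The class I median was -0.17 without it, and the class II median was 0.23 without it, with 7 of 8 class II genes then positive. Within the first table alone the class II median was 0.20, and within the second -0.65.

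H2-D1 was at 69.0, 70.4 and 156 TPM in sham mice 3, 192 and 12, and at 49.3 to 79.2 TPM with a median of 67.1 in transplanted mice. Sham mouse 12 was far above all others, and the other 2 sham mice lay inside the transplanted range. The log2 difference was -0.42 ± 0.16 (SE), with adjusted p = 0.686 by edgeR's quasi-likelihood test, and -0.19 without sham mouse 12. H2-K1 was at 60.7, 59.9 and 125 TPM in the sham mice and at 45.2 to 78.2 TPM, median 61.9, in transplanted mice, with a log2 difference of -0.41 ± 0.20 (SE) that became -0.17 without sham mouse 12. B2m was at 126, 132 and 257 TPM in the sham mice and at 83.1 to 139 TPM, median 132, in transplanted mice. The 3 genes thus shared 1 high sham library, and their other libraries overlapped. The log2 difference of B2m was -0.35 ± 0.20 (SE), and -0.09 without sham mouse 12.

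Psmb8, Tapbp and Tap2 rested less on that mouse. Psmb8 was at 7.01, 10.6 and 10.6 TPM in the sham mice and at 3.61 to 7.27 TPM, median 6.21, in transplanted mice, so that sham mouse 3 alone fell within the transplanted range. Its log2 difference was -0.61 ± 0.23 (SE, edgeR adjusted p = 0.686), and -0.73 without sham mouse 12. Tapbp was at 12.9, 14.7 and 18.1 TPM in the sham mice and at 10.8 to 13.7 TPM, median 11.4, in transplanted mice. Only transplanted mouse 94 reached into the sham range. Its difference was small but tight, at -0.21 ± 0.08 (SE, edgeR adjusted p = 0.686), and -0.19 without sham mouse 12. Tap2 was at 3.58, 4.58 and 4.13 TPM in the sham mice and at 2.61 to 3.51 TPM in transplanted mice, and the groups did not overlap. It and H2-M3 were the 2 members whose transplanted libraries all lay below the sham libraries, as did 0.96% of all genes. Tap2 had a log2 difference of -0.30 ± 0.13 and H2-M3 one of -0.55 ± 0.29 (SE). H2-M3 was at 1.47, 1.29 and 1.63 TPM in the sham mice and at 0.63 to 1.16 TPM in transplanted mice. Psmb10 averaged 13.5 TPM in sham and 12.2 TPM in transplanted muscle, was highest in sham mouse 192 at 20.0 TPM, and had a log2 difference of 0.02. Psmb9 did rest on sham mouse 12, with a log2 difference of -0.61 that became -0.24 without it.

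Cd74 and the main class II chains of muscle shared 1 high library. Cd74 was at 17.8, 24.3 and 48.0 TPM in sham mice 3, 192 and 12, and at 18.2 to 30.1 TPM, median 27.3, in transplanted mice. Sham mice thus held both the lowest and the highest value, and the log2 difference was 0.01 ± 0.21 (SE, edgeR adjusted p = 0.996). H2-Aa was at 12.9, 14.3 and 33.8 TPM in the sham mice and at 11.96 to 20.4 TPM, median 16.2, in transplanted mice. H2-Ab1 was at 8.36, 10.9 and 18.9 TPM in the sham mice and at 6.81 to 12.7 TPM, median 11.3, in transplanted mice. H2-Eb1 was at 5.65, 7.07 and 14.2 TPM in the sham mice and at 4.62 to 7.49 TPM in transplanted mice. Each of the 4 genes was highest in sham mouse 12, and the other 2 sham mice fell among the transplanted mice, except that Cd74 in sham mouse 3 lay just below them. The log2 differences of H2-Aa, H2-Ab1 and H2-Eb1 were -0.17 ± 0.22, -0.14 ± 0.22 and -0.30 ± 0.24 (SE), and 0.26, 0.13 and 0.20 without sham mouse 12. The call of no difference held in both cases, while the direction did not.

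The minor class II genes of muscle were low. H2-Ea, the E alpha chain, whose promoter is deleted in the b haplotype of mice such as C57BL/6, was at 0 to 0.73 TPM; no source used here gives the haplotype of these animals. H2-Eb1, its beta partner, was measured in all 9 libraries. H2-DMa was at 1.90, 2.42 and 3.04 TPM in sham and at 1.67 to 3.41 TPM in transplanted muscle, highest in transplanted mouse 14, and H2-DMb1 was highest in transplanted mouse 4, at 2.07 TPM. H2-Oa and H2-Ob, the chains of the DM inhibitor DO, stayed at or under 0.33 TPM. Ciita was at 0.35, 0.17 and 0.45 TPM in sham mice and at 0.04 to 0.25 TPM in transplanted mice, with sham mouse 192 inside the transplanted range. Its log2 difference was -0.55 ± 0.42 (SE), and -0.03 without sham mouse 12.

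**Figure D4:**
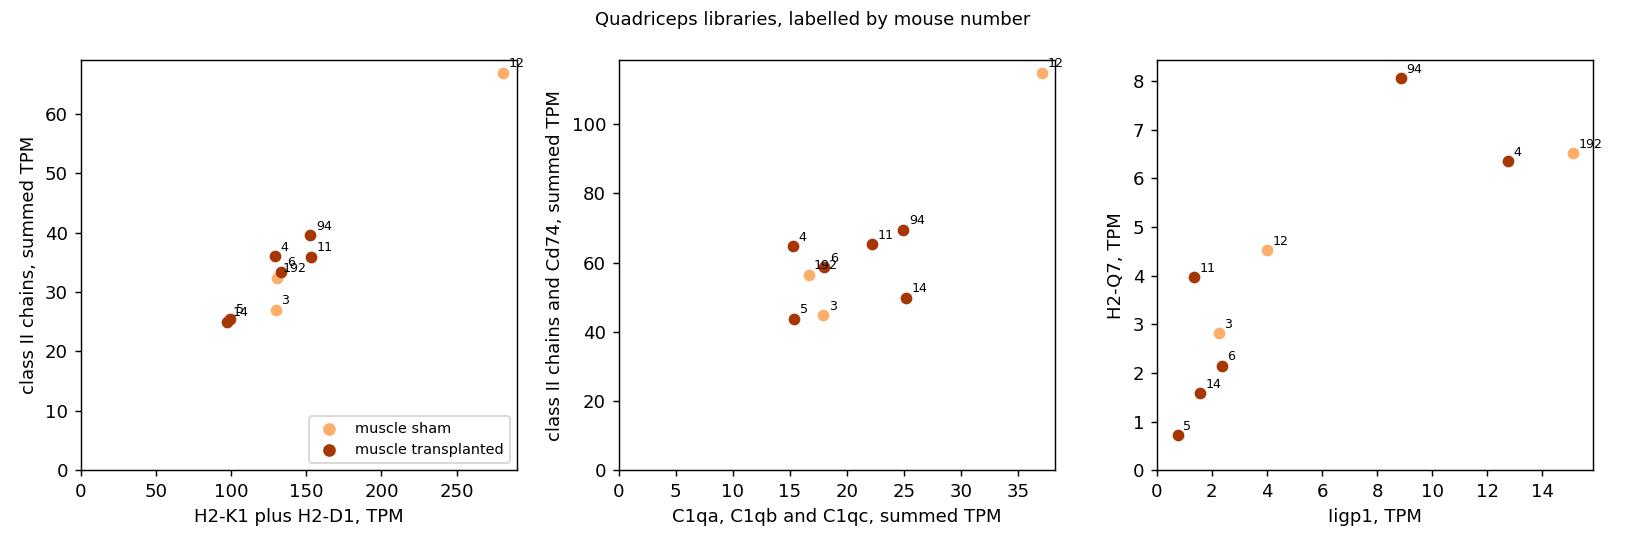
Quadriceps libraries labelled by mouse number. Left, summed class II chains against H2-K1 plus H2-D1; middle, class II chains and Cd74 against the summed C1q genes; right, H2-Q7 against Iigp1, all in TPM. Sham mouse 12 is at the upper right of the left and middle panels, and mice 94, 4 and 192 lead the right panel.

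Class I and class II kept almost the same proportion in all muscle libraries, as the plot of class II chains against H2-K1 plus H2-D1 shows. Both sums were lowest in transplanted mice 14 and 5, at 97.3 and 99.4 TPM of class I and 25.0 and 25.5 TPM of class II chains. Both were highest in sham mouse 12, at 281 and 66.9 TPM. The macrophage complement genes C1qa, C1qb and C1qc also summed highest in sham mouse 12, at 37.1 TPM, but transplanted mouse 14, with the second highest C1q sum of 25.2 TPM, had the lowest class II chains of all. The 9 points share tissue and the same 2 tables, and the part of cell content in these levels was not tested.

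Among the Qa genes of muscle, H2-Q5, H2-Q6 and H2-Q7 showed a pattern that crossed the groups. H2-Q4, whose mean passed 10 TPM in sham muscle, did not share it. It was at 6.19, 11.3 and 14.1 TPM in sham mice 3, 192 and 12 and at 4.69 to 9.85 TPM, median 6.91, in transplanted mice. H2-Q6 and H2-Q7, which encode Qa-2, were highest in transplanted mouse 94, at 6.73 and 8.06 TPM. H2-Q7 was at 6.36 TPM in transplanted mouse 4 and 6.52 TPM in sham mouse 192, and at 0.72 to 4.52 TPM in the other 6. The same 3 mice led for Tap1 and H2-Q5. In mice 4, 94 and 192 Tap1 was at 3.44, 3.08 and 4.73 TPM, and H2-Q5 at 1.32, 1.93 and 2.23 TPM. Sham mouse 12 came next in both, at 2.80 and 0.69 TPM. Of the interferon-inducible GTPase genes, Iigp1, Gbp3 and Gbp4, chosen after their values were seen, had these 3 leading mice too. Iigp1 was at 12.8, 8.86 and 15.1 TPM in mice 4, 94 and 192 and at 0.76 to 4.02 TPM in the other 6, and Gbp4 at 10.3, 6.85 and 14.3 TPM against 0.50 to 3.42 TPM. Gbp3 was at 5.78, 2.83 and 8.48 TPM in mice 4, 94 and 192, with sham mouse 12 next at 2.24 TPM. Gbp2, Igtp and Irgm1 were also highest in mouse 192, but sham mouse 12 came before mice 4 and 94 there. All 3 leading mice belong to the first table, 2 of them transplanted and 1 sham. The log2 differences of H2-Q6 and H2-Q7 between the groups were 0.05 ± 0.46 and -0.09 ± 0.56 (SE), close to 0 with wide errors. Nlrc5 was also highest in transplanted mouse 4, at 3.39 TPM, while the other 5 transplanted mice were at 0.20 to 1.33 TPM and the sham mice at 1.40, 1.78 and 1.59 TPM. Its log2 difference was -0.96 ± 0.42 (SE, edgeR adjusted p = 0.69).

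H2-Q10, a secreted class I molecule known from liver, had the largest difference in size of the members tested in muscle. It was at 4.93, 0.97 and 10.5 TPM in sham mice 3, 192 and 12 and at 0.56, 1.98, 1.66, 0.37, 2.73 and 0.82 TPM in transplanted mice 4, 14, 94, 5, 6 and 11. Sham mice 3 and 12 lay above all transplanted mice and sham mouse 192 lay among them. The log2 difference was -1.61 ± 0.49 (SE), with adjusted p = 0.686 by edgeR, and -0.82 without sham mouse 12. H2-T22 differed little, at 10.5, 13.9 and 17.02 TPM in the sham mice and 10.2 to 14.1 TPM in the transplanted mice. Its log2 difference was 0.01 ± 0.12 (SE). H2-T23 was at 6.39, 9.14 and 11.8 TPM in the sham mice and 6.07 to 7.57 TPM in the transplanted mice. Sham mice 192 and 12 thus lay above all transplanted mice, and sham mouse 3 among them. Its log2 difference was -0.26 ± 0.14 (SE, edgeR adjusted p = 0.729). H2-Ke6, the dehydrogenase gene, was at 34.7 to 50.7 TPM in sham and 39.98 to 51.6 TPM in transplanted muscle, with a log2 difference of 0.08 ± 0.09 (SE).

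The wider pathway lists gave no call in muscle. Of 9 interferon gamma signalling genes, 5 had a positive and 4 a negative log2 difference. Irf1 was at -0.45 ± 0.18 (SE), with adjusted p = 0.686 by edgeR's quasi-likelihood test. Of 18 interferon-stimulated genes, 15 were tested and 14 were negative, with the chemokine gene Cxcl9 at -1.78 ± 0.44 and Gbp2 at -0.83 ± 0.37 (SE). Of 7 MHC promoter-binding factors, 5 were negative and Rfx5 was at -0.03. Psmb5, Psmb6 and Psmb7 were at 0.13, 0.11 and 0.06, while Psmb8 and Psmb9 were both at -0.61. Of 6 class II route proteases, 5 were negative, with Ctss at -0.14 ± 0.26 (SE) and 2.09 to 5.51 TPM. All 11 macrophage markers tested were negative, and 4 of 5 fibroadipogenic markers were, with Dpt at -0.69 ± 0.22 (SE). The macrophage list summed to 48.6, 48.2 and 102 TPM in sham mice 3, 192 and 12 and to 39.97 to 66.5 TPM in transplanted mice. Dpt was at 36.2, 22.3 and 76.6 TPM in those sham mice and at 19.3 to 30.5 TPM in transplanted mice. Sham mouse 12 was thus the highest library for both. None of these genes passed the adjusted threshold.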

How the data were processed

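Messenger RNA was sequenced from 6 MuSC and 9 quadriceps libraries. Trizol RNA and an NEBNext Ultra kit were used, per the labels' protocols. The labels do not give strand or the aligner, and the submitters' processing notes name the builds GRCm38 and mm10. The authors deposited estimated counts, FPKM and TPM per gene in 3 tables, per the file headers: 1 for MuSCs and 2 for muscle. Their gene coordinates are not those of the GRCm38 annotation used for comparison (0 of 52 members shared with it had the same ones), so no coordinates were taken from them. A total of 3 value columns that no label names were not used. Levels are the deposited TPM. The deposited FPKM served as an alternative for the class II share.

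For tests, estimated counts were rounded and fitted with edgeR 4.0.16 (R 4.3.3): filterByExpr with a minimum count of 10, TMM scaling, quasi-likelihood test, 2-sided, Benjamini-Hochberg over all genes tested, threshold 0.05, with the table as a term for muscle. A member whose groups differ in detection can pass that filter through 1 group; 21 members passed in MuSCs and 30 in muscle. The alternatives were DESeq2 1.42.0, RLE scaling, no filter, a term for the mouse, a term for the style of the library name, each muscle table alone, no table term, and each library left out. The steps were tested on simulated data. In the MuSC design over 13238 genes, 80.0% of genes changed 8-fold and 2.0% of genes changed 2-fold were recovered. In the muscle design over 14117 genes, these shares were 91.0% and 61.0%. The sample titles number mice 5, 6 and 11 in both MuSC groups. By those titles the libraries pair by animal, since the transplant was autologous. The main MuSC fit nevertheless has no term for the mouse, and the fit with that term is the alternative called the block. Deviations from the group means correlated at 0.31, 0.38 and -0.46 within mice 5, 6 and 11 and at -0.71 to 0.61 between different mice. Their signs followed the style of the library name. After and before libraries named in the same style correlated at 0.31 to 0.61, and those in different styles at -0.71 to -0.18. Only mouse 11 has libraries in different styles, so in that mouse transplantation and name style cannot be told apart, with or without the block. All replicate pairs differed by more than sampling noise, with a chi-square per degree of freedom of 16.72 to 461.84 over 13 pairs.

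Members averaging at least 10 TPM in a group were described one by one, and the others by range and count with up to 4 more per class. Pathway lists were given by counts, the up to 3 largest differences, and a few preset genes, of which 1 is not reported here. The members, lists and this rule were chosen with earlier results of these data known. Promoters were read from a RefSeq table on GRCm38.p6. Figures were drawn with matplotlib 3.10.9.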

Additional observations from a re-analysis of the deposited data

Results flagged for a closer look

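Nlrc5 in the muscle of transplanted mouse 4, at 3.39 TPM, stood apart from the other 5 transplanted mice: its gap to the next highest was 0.646 of the group's whole range. It was the only such value among 25 members examined in the 6 transplanted libraries. Chance alone marks about 1 group in 20. The same library had 2 Xist counts, and its levels of H2-Q7 and Iigp1 were among the 3 highest in muscle.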

How the results depend on the processing

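No member was called by edgeR or DESeq2 under any alternative run, with adjusted p of 0.187 to 1.0 in MuSCs and 0.129 to 1.0 in muscle. Those ranges of adjusted p, and the counts of directions that follow, cover only part of the members tested. Not covered in MuSCs were H2-DMb1, H2-Ke6, H2-Q4, H2-T10 and H2-T24. Not covered in muscle were H2-DMa, H2-DMb1, H2-DMb2, H2-K2, H2-Q5, H2-Q6, H2-Q7, H2-T10, H2-T22, H2-T24, Psmb10 and Tap1. For the members covered in MuSCs, 161 values kept their direction and 15 reversed. In muscle 258 kept it and 12 reversed. DESeq2 called 18 genes in MuSCs and 17 in muscle. In muscle, no filter on low counts gave 12 genes, the table with 2 sham mice 1, the table with 1 sham mouse 41, and leaving out each library 0 to 4 (2 without transplanted mouse 94, 4 without sham mouse 192). With the mouse as a replicate block, the MuSC class I median was 0.56 and B2m was -0.11; with the style of library name as a term they were 0.53 and -0.21. The block put H2-K1, Psmb8 and Psmb9 at 0.12, 0.02 and 0.38, and changed no call. Leaving out each MuSC library gave a class I median of -0.31 to 1.58 and a class II median of -0.43 to 0.47. Over the same MuSC fits H2-K1 ranged from -0.87 to 1.71, H2-D1 from -0.30 to 1.57, B2m from -0.72 to 0.47, Psmb8 from -1.22 to 3.11, Psmb9 from -0.60 to 2.42 and Tap1 from -0.61 to 1.28. Tap2 ranged from -0.43 to 1.04, Tapbp from -0.22 to 1.44, H2-T22 from -0.0086 to 1.67 and H2-T23 from -0.36 to 1.79. The lowest value was without the after library of mouse 11 in each of these. H2-M9 ranged from -1.09 (without the after library of mouse 5) to 5.28 and Nlrc5 from -2.61 to 0.16 (without the before library of mouse 5). In muscle the class II median was 0.20 in the table with 2 sham mice and -0.65 in the table with 1, and -0.29 to 0.23 with each library left out. H2-Aa, H2-Ab1 and H2-Eb1 were 0.26, 0.12 and 0.20 in the table with 2 sham mice, and -0.30 to 0.26, -0.30 to 0.13 and -0.47 to 0.20 with each library left out. Cd74 was -0.56 in the table with 1 sham mouse and -0.18 to 0.44 with each library left out. The cause of these shifts was not tested. With 3 libraries a group in MuSCs, 2-fold differences were rarely recovered on simulated data.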
